A study of Homo sapiens with 9 samples.

Results

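The HOX genes are transcription factors with a homeodomain, a fold that binds DNA, and in the human genome they lie in 4 clusters, HOXA, HOXB, HOXC and HOXD. The human genome holds 39 of them, numbered from 1 to 13. Here 28 of the 39 could be read. A gene was taken where the platform annotation of a probe set names it and no other gene, and where it had several probe sets the one whose mean over the 9 arrays was highest stands for the gene. These 28 stand among 19775 genes measured. They are HOXA2, 10 genes of HOXB, 9 of HOXC and 8 of HOXD, on chromosomes 7, 17, 12 and 2, so HOXA is represented by 1 gene and the clusters are not covered evenly. The other 11, which are 10 HOXA genes and HOXD3, had no probe set that names them alone and were not analysed here. The choice used the annotation and the mean over all arrays, not a difference between groups.

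In the embryo HOX genes are switched on in the order of their position in the cluster, from the low numbers (the 3′ end) in the hindbrain to the high numbers in the lumbar and tail region, and each gene marks the level of the body axis at which its expression ends. The forebrain and the midbrain express none. Retinoic acid, WNT and FGF signals, acting partly through the CDX factors, open the clusters, and in embryonic stem cells Polycomb complexes hold them silent. HOX proteins bind DNA with the TALE factors PBX, MEIS and PKNOX as partners. The inner ear forms beside the hindbrain, where the low-numbered HOX genes are active, and from where FGF3 is among the signals to the otic placode.

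The arrays came from 3 established human embryonic stem cell lines, Shef3, H14 and Shef1, hybridised to Affymetrix arrays whose probes lie near the 3′ ends of transcripts. Undifferentiated cells, called hESC, were sampled at day 0. They grew on mitotically inactivated mouse embryonic fibroblasts in serum replacement medium with 4 ng/ml bFGF. The other groups were trypsinised, seeded on laminin and sampled at day 14. Their medium was DMEM:F12 with N2 and B27, without addition (DFNB) or with FGF3 and FGF10, each at 50 ng/ml (FGF3+10). The labels name no genetic change in any group. There was 1 array for each line in each group, so the spread within a group is the spread between lines. Nothing in the labels says that arrays are repeated cultures of a line. The p-values of the group comparisons, with group alone in the model, measure the spread between lines only. No source used here gives the log base of the deposited values, which is taken as log2, and each array has a median of 3.20 over its probe sets. Values run from -14.4 to 13.3, and no detection calls are used, so a fixed value of 4 stands here for a readable signal. In bulk samples, fewer cells of a type and less RNA per cell cannot be told apart. Values of different probe sets are not set against each other, because each has its own response.

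The cell type labels were checked on a list of 9 measured pluripotency genes. All 9 stood at 4 or higher on the hESC arrays of Shef3 and H14, and 8 of 9 on that of Shef1, with means over the list of 10.6, 9.86 and 8.63 in Shef3, H14 and Shef1. At day 14 the means were 2.08 for Shef3, 6.44 for H14 and 7.69 for Shef1 in DFNB, and 2.44, 7.73 and 7.65 in FGF3+10. At day 14 the Shef3 means were thus far below those of H14 and Shef1. NANOG, a core pluripotency factor, stood at -10.2 in Shef3 after DFNB and at 9.64 in Shef1. Of the 9, ZFP42, another stem cell marker, was called between lines (limma moderated F 76.6, adjusted p 0.0232, and 0.0377 to 0.132 without single arrays). On the Shef1 arrays it read -0.48, -0.81 and -0.92 in hESC, DFNB and FGF3+10. The hESC cultures also held markers of other cells, with all 9 endoderm genes at 4 or higher in Shef3 and H14 and 12 of 14 mesenchyme genes in each line. The part of feeder RNA or of differentiated cells in the HOX values at day 0 was not tested. Poly-A spike controls read 7.43 to 7.50 on the Shef1 arrays and 5.04 to 5.72 on the others, so Shef1 stands apart from the other lines in this technical measure as well. Its part in the Shef1 differences was not tested.

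No HOX gene passed the test in any comparison: an adjusted p below 0.05 (limma, Benjamini-Hochberg over all genes) was reached by 0 of 28 members between DFNB and hESC, by 0 of 28 between FGF3+10 and hESC, and by 0 of 28 between FGF3+10 and DFNB. Over all 19775 genes these comparisons called 0.202%, 0.177% and 0.0%, so the absence of calls is near the background. The members' changes are therefore given as values with their intervals, and an interval that includes 0 does not show that a gene did not change. The 95% interval lay within 2 log2 units on either side of 0 for 9 of 28 members between DFNB and hESC, for 11 between FGF3+10 and hESC and for 13 between FGF3+10 and DFNB, and it lay within 3 units for 23, 19 and 21. Unadjusted p below 0.05 was reached by 1, 3 and 2 members, where all genes gave 15.8%, 12% and 1.52%. Of the 13 members with several probe sets, 7, 3 and 6 had probe sets that differed in sign. The median change over the members was -0.16, -0.51 and -0.62 log2, and over all genes -0.19, -0.19 and 0.00.

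**Figure D1:**
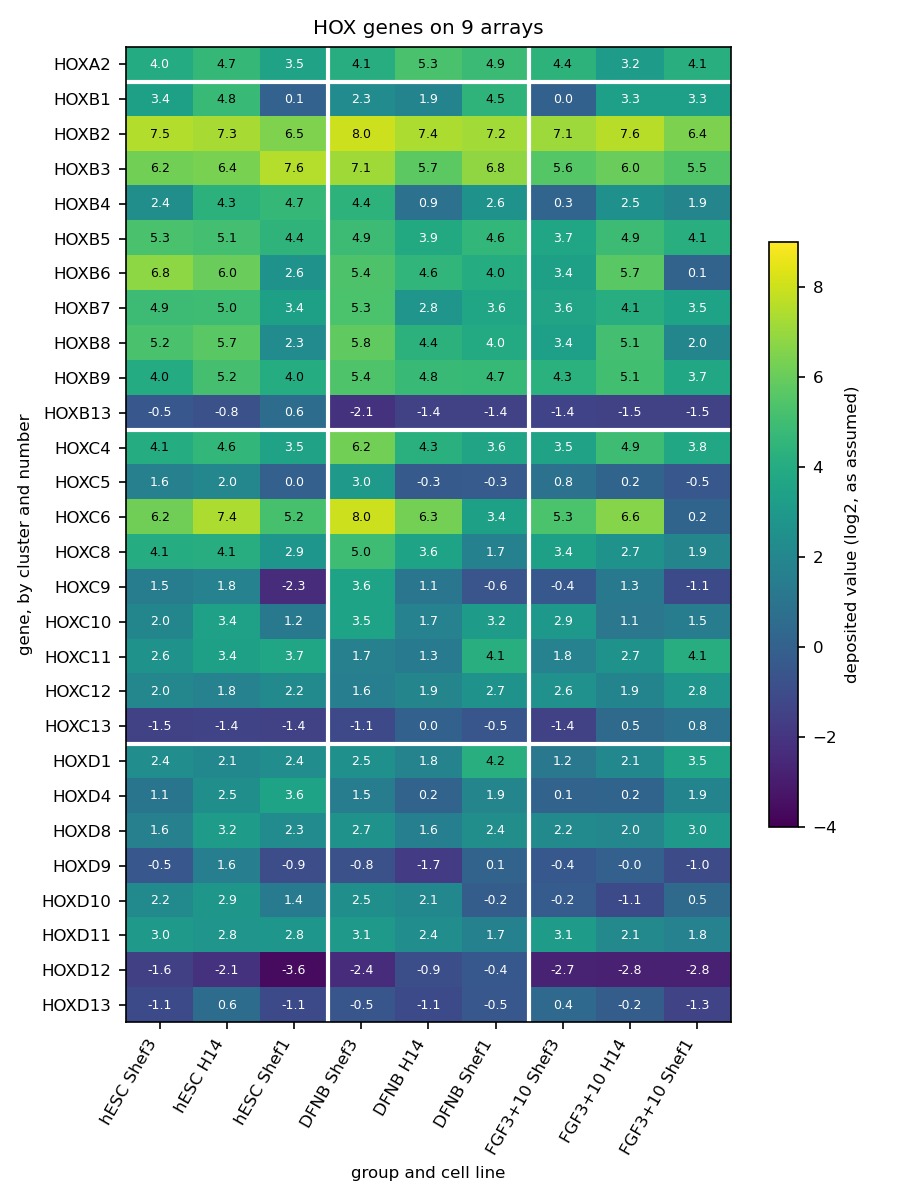
Deposited values of the 28 HOX genes (rows, by cluster and number) on the 9 arrays (columns, by group and cell line), as a colour scale on the log2 scale with each value printed. HOXB2 and HOXB3 stand at 4 or higher on all 9 arrays, and HOXC6 runs from 0.17 to 8.02.

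Signal was read from a subset of the genes. Of 28 members, 10, 13 and 6 stood at 4 or higher on the hESC arrays of Shef3, H14 and Shef1, 12, 8 and 9 on the DFNB arrays, and 5, 9 and 5 on the FGF3+10 arrays. Over all genes 57.6% to 60.2% stood at 4 or higher on an array, against 17.9% to 46.4% of the members. The members at 4 or higher on all 9 arrays were HOXB2 and HOXB3. HOXB9 reached it on 8, HOXC6 and HOXB5 on 7, HOXA2 and HOXB6 on 6, HOXC4 and HOXB8 on 5, HOXB7 on 4, HOXB4 and HOXC8 on 3, HOXB1 and HOXC11 on 2, and HOXD1 on 1. The other 13 stayed below 4 on every array. These 13 are HOXB13, HOXC5, HOXC9, HOXC10, HOXC12, HOXC13 and 7 of the 8 HOXD genes. In HOXD a single value reached 4, that of HOXD1 in DFNB Shef1.

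Upstream sequences from RefSeq (GRCh38.p14) are shown for HOXA2 and HOXB1, which HOX and TALE proteins are known to regulate, and for HOXC4 and HOXC5, whose gene start on chromosome 12, 54016888, is also that of HOXC6, the member with the widest range over the arrays. Of the 28 members, 11 had an entry, of 35116 entries in the table, and HOXC4 and HOXC5 have the same one. Each is the 250 bases before the start, on the gene's strand. Capitals mark matches, found on either strand, to TGATNNAT, the composite word of HOX and PBX factors, in HOXA2 and HOXB1, and to TTTATNG, the word of CDX factors, in HOXC4 and HOXC5. A match is a description of these letters and not a site.
HOXA2 (chr7:27102684-27102933, minus strand): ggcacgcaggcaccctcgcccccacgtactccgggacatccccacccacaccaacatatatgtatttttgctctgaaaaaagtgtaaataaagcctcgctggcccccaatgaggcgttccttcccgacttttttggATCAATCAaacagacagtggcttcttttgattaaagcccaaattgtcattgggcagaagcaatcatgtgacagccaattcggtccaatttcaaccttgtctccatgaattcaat
HOXB1 (chr17:48531012-48531261, minus strand): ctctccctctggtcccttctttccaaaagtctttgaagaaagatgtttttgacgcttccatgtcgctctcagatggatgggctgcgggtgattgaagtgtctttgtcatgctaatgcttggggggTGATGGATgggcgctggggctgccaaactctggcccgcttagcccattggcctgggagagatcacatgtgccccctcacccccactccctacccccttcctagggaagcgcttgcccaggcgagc
HOXC4 and HOXC5 (chr12:54016638-54016887, plus strand): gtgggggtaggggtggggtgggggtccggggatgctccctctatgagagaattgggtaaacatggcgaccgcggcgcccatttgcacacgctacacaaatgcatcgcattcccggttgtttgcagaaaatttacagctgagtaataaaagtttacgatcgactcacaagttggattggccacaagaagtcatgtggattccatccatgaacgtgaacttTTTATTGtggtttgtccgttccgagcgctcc
Of all entries, 6.47% hold TGATNNAT, among members also HOXD11, and 8.93% hold TTTATNG, among members also HOXD8. Another word, AGGTCA, of retinoic acid receptors, was in 12.08% of entries and in 0 of the 11 members. CpG dinucleotides numbered 4 (HOXD4) to 31 (HOXD1) per member, with a median of 16, against a median of 11 over all entries.

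Values are given below in the order Shef3, H14 and Shef1 within each group. The genes of numbers 1 to 4 pattern the hindbrain and neck. HOXA2, which shapes the second pharyngeal arch and with it the middle ear, read 4.00, 4.67 and 3.51 in hESC, 4.11, 5.27 and 4.86 in DFNB, and 4.41, 3.18 and 4.13 in FGF3+10. HOXB1, needed for the facial nerve segment of the hindbrain, read 3.37, 4.78 and 0.10 in hESC, 2.29, 1.85 and 4.46 in DFNB, and 0.02, 3.35 and 3.34 in FGF3+10. The HOXA2 values of the 3 groups overlap and spread over 2.08 units, and those of HOXB1 spread over 4.76 units and cross between lines. The mean difference of HOXA2 between DFNB and hESC was 0.68 ± 0.48 (SE, n = 3 arrays per group, limma adjusted p 0.512), with 0.11, 0.60 and 1.35 in the lines.

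HOXB2, a hindbrain gene acting with HOXB1 in facial motor neurons, read 7.52, 7.32 and 6.50 in hESC, 7.99, 7.41 and 7.18 in DFNB, and 7.09, 7.60 and 6.43 in FGF3+10. HOXB3, which acts in the hindbrain and the thyroid and parathyroid region, read 6.21, 6.40 and 7.56 in hESC, 7.13, 5.72 and 6.83 in DFNB, and 5.56, 6.02 and 5.48 in FGF3+10. HOXB4, known for its effect on blood stem cells, read 2.41, 4.35 and 4.67 in hESC, 4.41, 0.93 and 2.64 in DFNB, and 0.26, 2.54 and 1.92 in FGF3+10. The HOXB2 groups overlap, HOXB3 in FGF3+10 lay below each hESC value, and the HOXB4 groups overlap, with Shef3 lowest in hESC and FGF3+10 and H14 lowest in DFNB. Between FGF3+10 and hESC the mean difference of HOXB3 was -1.03 ± 0.49 (95% interval -2.15 to 0.08, adjusted p 0.445), and that of HOXB4 was -2.23 ± 0.99 (interval -4.49 to 0.02, adjusted p 0.421), each negative in all 3 lines. Between DFNB and hESC, HOXB4 differed by 2.01 in Shef3 and by -3.42 and -2.03 in H14 and Shef1, with a mean of -1.15 ± 0.99 (adjusted p 0.598).

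HOXC4, a neck and upper thoracic gene, read 4.06, 4.62 and 3.47 in hESC, 6.24, 4.26 and 3.61 in DFNB, and 3.49, 4.95 and 3.76 in FGF3+10. HOXD1, known in pain-sensing neurons, read 2.37, 2.08 and 2.35 in hESC, 2.52, 1.83 and 4.22 in DFNB, and 1.18, 2.09 and 3.48 in FGF3+10. For HOXC4 1 array stands out, DFNB Shef3. For HOXD1 both day 14 arrays of Shef1 stand above all others, with DFNB Shef1 the higher. The groups of both genes overlap. The change from hESC to DFNB was 0.66 ± 0.70 for HOXC4 (adjusted p 0.676) and 0.59 ± 0.71 for HOXD1 (adjusted p 0.715). Without DFNB Shef3 the value for HOXC4 turned to -0.11, and without DFNB Shef1 that for HOXD1 turned to -0.088. The other probe set of HOXD1 gave -1.32, opposite to the one used, and the mean of both gave -0.37. HOXD4 ran from 0.13 to 3.56.

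The genes of numbers 5 to 9 pattern the brachial and thoracic spinal cord and trunk. HOXB5, which acts in the neural crest of the gut, read 5.29, 5.10 and 4.44 in hESC, 4.90, 3.88 and 4.59 in DFNB, and 3.71, 4.90 and 4.14 in FGF3+10. HOXB7, a trunk gene, read 4.91, 4.96 and 3.37 in hESC, 5.32, 2.80 and 3.64 in DFNB, and 3.61, 4.11 and 3.55 in FGF3+10. HOXB9, a thoracic gene, read 4.02, 5.18 and 4.04 in hESC, 5.44, 4.80 and 4.70 in DFNB, and 4.30, 5.08 and 3.74 in FGF3+10. The groups of all 3 genes overlap, and no line was the lowest in every group. The probe sets used for HOXB5, HOXB6, HOXB7, HOXB8 and HOXC6 are of a type that can match several transcripts.

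HOXC6, which marks the level of the forelimb, read 6.18, 7.38 and 5.21 in hESC, 8.02, 6.29 and 3.39 in DFNB, and 5.32, 6.62 and 0.17 in FGF3+10. HOXB6, its counterpart in HOXB, read 6.79, 6.05 and 2.62 in hESC, 5.39, 4.58 and 4.03 in DFNB, and 3.41, 5.69 and 0.13 in FGF3+10. HOXB8, which also marks a lineage of microglia, read 5.25, 5.66 and 2.25 in hESC, 5.83, 4.38 and 3.97 in DFNB, and 3.35, 5.11 and 1.97 in FGF3+10. In each of these genes Shef1 was the lowest line in every group, and the lowest array was FGF3+10 Shef1. In HOXC6 all Shef1 values lie below those of the other lines, while in HOXB6 and HOXB8 the lines overlap.

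HOXC8, which specifies brachial motor neuron pools, read 4.07, 4.12 and 2.85 in hESC, 4.99, 3.55 and 1.69 in DFNB, and 3.38, 2.70 and 1.91 in FGF3+10. HOXC9, which sets the thoracic motor columns, read 1.46, 1.78 and -2.33 in hESC, 3.56, 1.09 and -0.57 in DFNB, and -0.42, 1.26 and -1.10 in FGF3+10. Shef1 was again lowest in every group for both, and in HOXC9 each Shef1 value lies below those of the other lines. HOXD8 read 1.64, 3.17 and 2.27 in hESC, 2.66, 1.61 and 2.41 in DFNB, and 2.16, 2.04 and 3.01 in FGF3+10, with overlapping groups. HOXC5 ran from -0.49 to 3.05 and HOXD9 from -1.68 to 1.57.

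**Figure D2:**
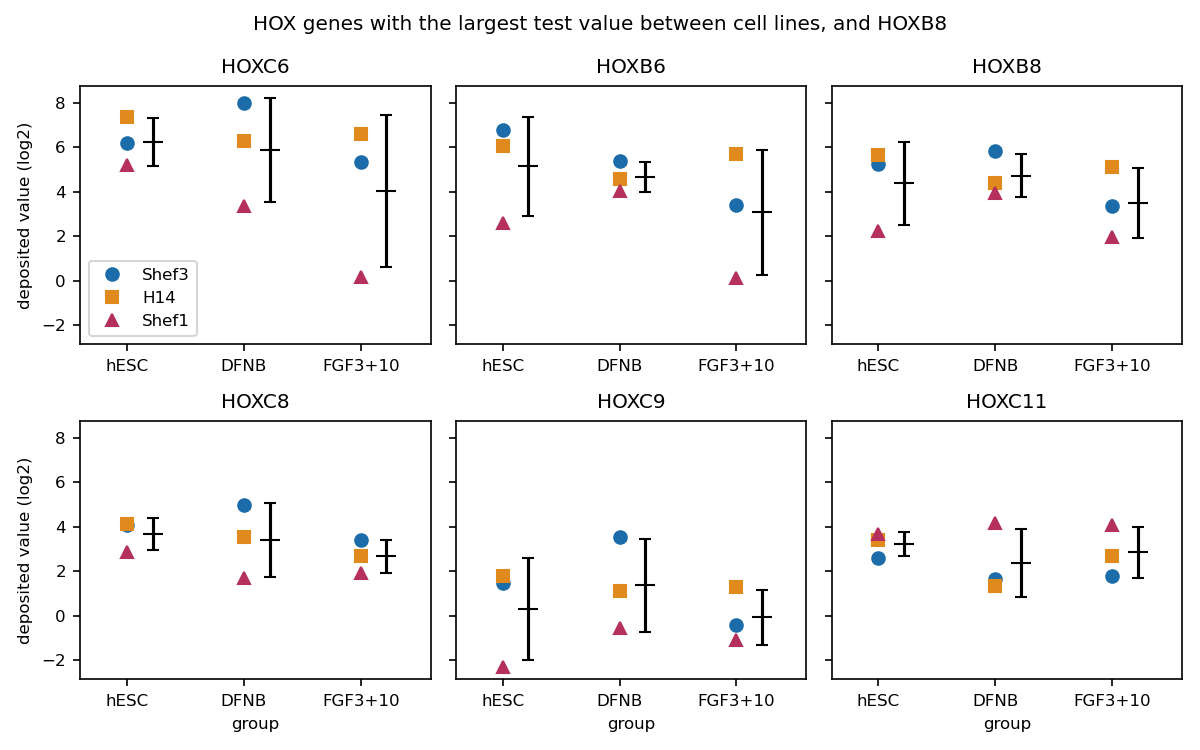
Deposited values (log2) of HOXC6, HOXB6, HOXB8, HOXC8, HOXC9 and HOXC11 in hESC, DFNB and FGF3+10, with 1 symbol per cell line and black bars for mean ± SD of the 3 arrays. Shef1 (triangles) is the lowest in every group of the first 5 genes and the highest in every group of HOXC11.

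The test of the cell lines with group held called 0 of 28 members, where it called 0.46% of all genes (limma moderated F, adjusted p below 0.05). Its spread is what is left after group and line are taken off. The 3 arrays of a line come from different groups and are not repeats. HOXC8 had the largest F, 10.6 (adjusted p 0.130), followed by HOXC6 at 9.50 (0.144) and HOXC11 at 9.04 (0.152). HOXB6 gave 7.44 (0.178) and HOXC9 7.28 (0.181). At an unadjusted p below 0.05 stood 7 of 28 members, 25%, against 20.3% of all genes, near that background. Shef1 was the lowest line in all 3 groups for 6 members, 21.4%, which are HOXB2, HOXB6, HOXB8, HOXC6, HOXC8 and HOXC9, against 18.1% of all genes. All its values lay below those of the other lines for HOXC6 and HOXC9, against 11.2% of all genes, and above them for HOXC11, against 3.55%. It was the highest in all 3 groups for HOXC11, HOXC12 and HOXD4, 10.7%, against 8.0% of all genes. HOXC6 averaged 6.51 ± 1.38 in Shef3, 6.76 ± 0.56 in H14 and 2.92 ± 2.55 in Shef1 (SD, n = 3 arrays, 1 per group). The line means of HOXC11, a hindlimb-level gene, were 2.02 ± 0.52, 2.46 ± 1.05 and 3.97 ± 0.25.

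By HOX number, the median of Shef1 minus the mean of the other lines was 0.24 over the 8 members of numbers 1 to 4, -1.49 over the 11 of numbers 5 to 9 and -0.22 over the 9 of numbers 10 to 13, against -0.07 over all genes. In numbers 5 to 9, 10 of 11 were lower in Shef1 with the probe sets used, against 10704 of 19775 over all genes. This grouping was described after its values were seen and carries no test. For HOXB6 the 2 probe sets disagreed: the one used gave -3.06 and the other -0.05, so the low Shef1 value was seen with the one used. For HOXB8 the other gave -1.46 against -2.20. For HOXD9 the other gave 1.08 against -0.31, opposite in sign, while those of HOXB5, HOXB7 and HOXB9 were lower in Shef1 too. Mesenchyme markers moved along on some of these arrays, with a mean over 14 genes of 7.39, 7.53 and 7.59 in hESC, 9.24, 8.65 and 7.32 in DFNB, and 8.80, 7.77 and 6.27 in FGF3+10. Their highest and lowest arrays, DFNB Shef3 and FGF3+10 Shef1, were also the highest and lowest of HOXC6, while at day 0 Shef1 did not have the lowest mean. TWIST1, a defining mesenchyme factor, read 9.62 and 4.54 on those arrays. From hESC, the mesenchyme mean rose while HOXC6 fell in H14 on both media and in Shef3 in FGF3+10. Both rose in Shef3 in DFNB, and both fell in Shef1 on both media. The part of these markers in the HOX result was not tested.

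**Figure D3:**
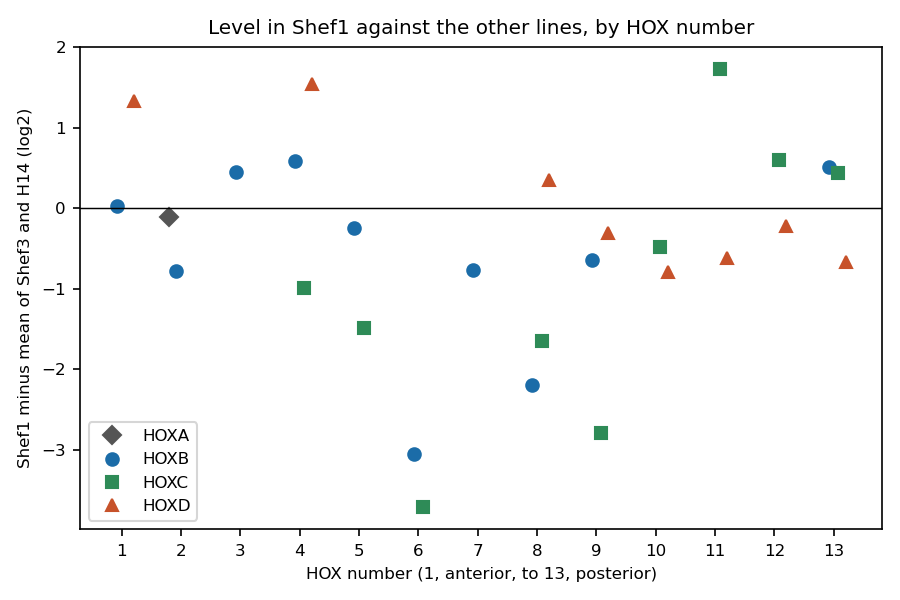
Difference of the mean Shef1 value from the mean of Shef3 and H14 (vertical axis, log2) for the 28 members against HOX number (horizontal axis), with 1 symbol per cluster. The largest deficits, -3.71 for HOXC6 and -3.06 for HOXB6, lie at number 6, and HOXC11 is highest at 1.73.

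The members most like HOXC6 over the 9 arrays were HOXB6 with r = 0.85, HOXC8 with 0.82, HOXB8 with 0.80 and HOXB2 with 0.77. The lowest was HOXC12 at -0.88. These are descriptions over 9 arrays that share lines and groups. After the group means were taken off, HOXB2, HOXB6 and HOXB9 correlated best, at 0.85, 0.81 and 0.81. Over the 9 arrays the 2 probe sets of HOXB6 correlated with each other at 0.40, and those of HOXB8 at 0.48.

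The genes of numbers 10 to 13 pattern the lumbar, sacral and tail regions and the distal limb. HOXC10, a lumbar gene, read 1.98, 3.42 and 1.24 in hESC, 3.53, 1.74 and 3.20 in DFNB, and 2.92, 1.14 and 1.49 in FGF3+10. HOXC11 read 2.61, 3.39 and 3.68 in hESC, 1.65, 1.32 and 4.15 in DFNB, and 1.78, 2.68 and 4.08 in FGF3+10. HOXD11, known for the forearm and kidney, read 2.96, 2.76 and 2.82 in hESC, 3.06, 2.36 and 1.72 in DFNB, and 3.12, 2.10 and 1.78 in FGF3+10. In HOXC10 and HOXD11 the groups overlap, while in HOXC11 Shef1 lay above each array of the other lines. Between DFNB and hESC, HOXC11 differed by -0.85 ± 0.83 (adjusted p 0.642), and by 0.049 where values below 4 were set to 4. HOXB13, a prostate and tail gene, read -0.47, -0.78 and 0.62 in hESC, -2.08, -1.42 and -1.45 in DFNB, and -1.38, -1.50 and -1.46 in FGF3+10. Its day 14 values all lie below its day 0 values, and all 9 lie below 4. Of the rest, HOXC12 ran from 1.56 to 2.76, HOXC13 from -1.48 to 0.83, HOXD10 from -1.09 to 2.86, HOXD12 from -3.61 to -0.44, and HOXD13 from -1.33 to 0.59.

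Between DFNB and hESC 12 members were higher and 16 lower in the mean. Over all 19775 genes 7810 were higher and 11965 lower, so the members are near that background. The groups did not overlap for 2 of 28 members, HOXB13 (lower) and HOXC13 (higher), against 22.1% of all genes (7.8% higher and 14.3% lower). HOXC13 was named after its values were seen. HOXB13 had the smallest adjusted p in this comparison, at 0.164, for a change of -1.44 ± 0.40 (95% interval -2.36 to -0.52), and its other probe set gave -0.33. By line the members' median difference was 0.41 (Shef3), -0.94 (H14) and 0.47 (Shef1), so the lines did not share a direction. Leaving out the H14 arrays turned the members' median over lines from -0.16 to 0.48. Among members that stayed below 4, the differences of HOXD12, HOXD4 and HOXC9 were 1.20, -1.18 and 1.06. HOXC6 differed by 1.84, -1.10 and -1.82 in the lines, with a mean of -0.36 ± 1.71 and an interval from -4.25 to 3.53.

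Between FGF3+10 and hESC 5 members were higher and 23 lower, all 10 HOXB genes among the latter. Over all genes 12341 of 19775 were lower in this comparison. The groups did not overlap for HOXB3, HOXB13 and HOXD10, all lower, against 17.0% of all genes (5.68% higher and 11.3% lower). The mean difference of HOXC6 was -2.22 ± 1.71 (adjusted p 0.642), with -0.86, -0.76 and -5.04 in Shef3, H14 and Shef1, and without FGF3+10 Shef1 it was -0.29. HOXB6 gave -2.08 ± 1.46 (adjusted p 0.609) and HOXC8 -1.02 ± 0.80 (adjusted p 0.650). The other probe set of HOXB6 gave -0.42. HOXD10, chosen after its values were seen, gave -2.40 ± 0.74 (adjusted p 0.247), and its other probe sets gave 1.08 and -0.32. HOXC13, also chosen after its values were seen, was higher in all 3 lines, by 0.03, 1.85 and 2.25, with a mean of 1.37 ± 0.59 (95% interval 0.04 to 2.71, adjusted p 0.401). HOXD4 differed by -1.64 and HOXB13 by -1.24. All values of these 4 genes in the 2 groups lie below 4.

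Between FGF3+10 and DFNB, the comparison of the added factors at day 14, 7 members were higher and 21 lower, with all adjusted p at 1.000. With the probe sets used, the 8 members of numbers 1 to 4 were all lower in the mean, 9 of 11 of numbers 5 to 9, and 4 of 9 of numbers 10 to 13. Over all genes 9788 were lower and 9984 higher. In numbers 1 to 4 the other probe sets of HOXB1, HOXD1 and HOXD4 had the opposite sign, at 0.80, 0.78 and 0.04, while that of HOXB3 was lower. By line the members' median came to -1.27 for Shef3, 0.32 for H14 and -0.63 for Shef1, so H14 had the other sign. Among members that reached 4 on at least 1 array of these groups, the 5 largest mean differences were -1.86 ± 1.71 for HOXC6, -1.59 ± 1.46 for HOXB6, -1.25 ± 1.06 for HOXB8, -1.09 ± 0.99 for HOXB4 and -0.87 ± 0.49 for HOXB3. With the probe sets used, Shef3 and Shef1 were lower and H14 was higher for each of these 5 genes. The other probe set of HOXB6 gave a mean difference of 0.06, with Shef1 at 2.36 in DFNB and 2.59 in FGF3+10. That of HOXB8 gave -1.39, with H14 at 1.26 in DFNB and -1.80 in FGF3+10, and that of HOXB3 gave -0.65. Without FGF3+10 Shef1 the value for HOXC6 turned to 0.074, and without the Shef3 arrays that for HOXB4 turned to 0.45. Of the members that stayed below 4, HOXD10 differed by -1.73, HOXD12 by -1.54 and HOXC9 by -1.45. HOXD12, chosen after its values were seen, was the member whose groups did not overlap, lower in FGF3+10, against 3.18% of all genes (1.46% higher and 1.72% lower). The comparisons share arrays, so their values are not independent of each other.

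**Figure D4:**
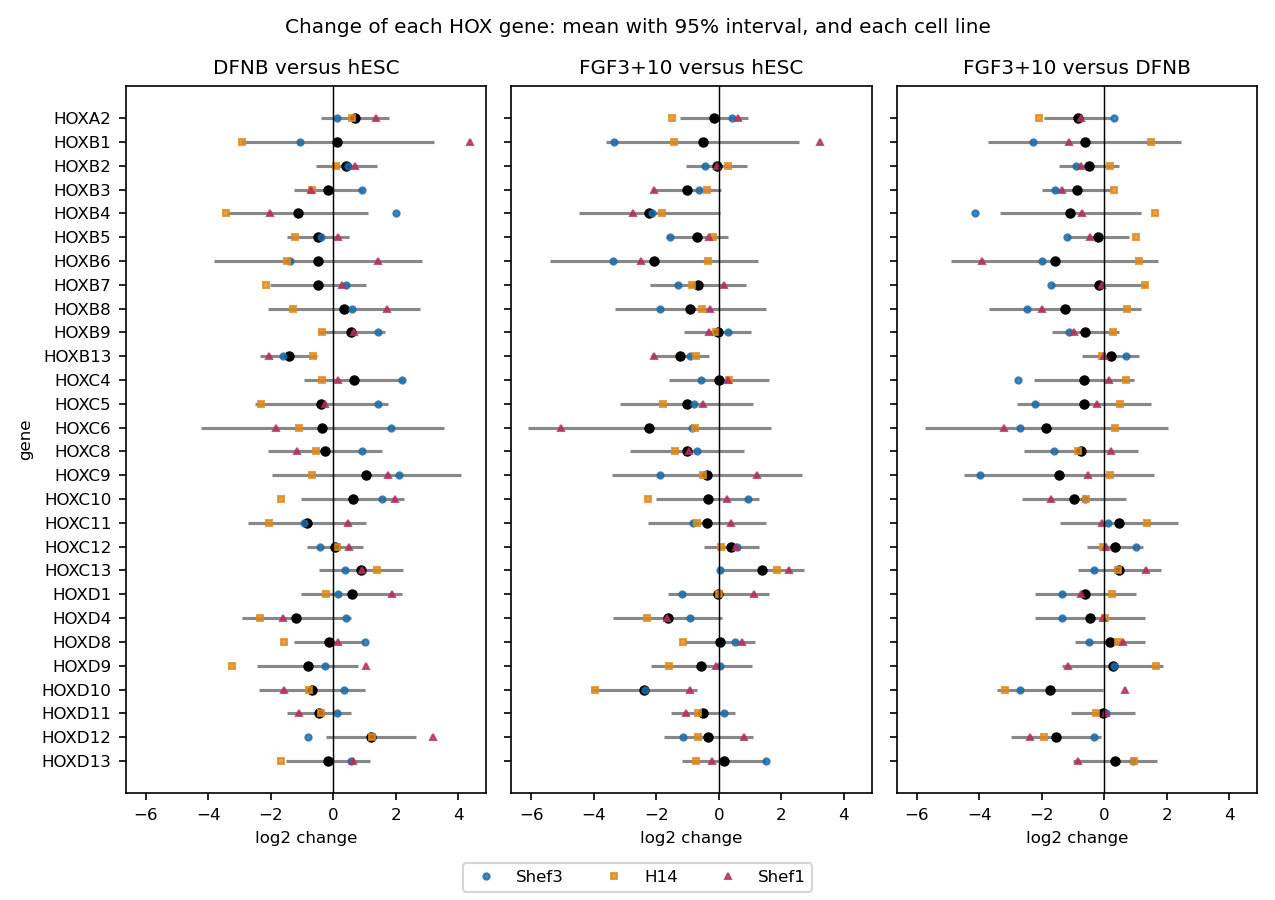
Change of the 28 members in the 3 comparisons (horizontal axis, log2): black points and grey bars are the mean change and its 95% interval, and coloured symbols the change in each cell line. The bars of all but 1, 3 and 2 genes span 0, and that of HOXC6 between FGF3+10 and hESC runs from -6.11 to 1.67.

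Whether the change by day 14 differed between lines was tested by the interaction of line and day, in which the spread comes from the 2 media within a line and not from repeats. It called 0 of 28 members and 0.0% of all genes. With values below 4 set to 4 it called 1744 of 13406 genes and 0 of the 15 members it tested. At an unadjusted p below 0.05 stood 3 members, HOXB1, HOXD8 and HOXD11, 10.7%, against 19.4% of all genes. HOXB1 had the largest F, 8.28 (adjusted p 0.231), with day 14 minus day 0 at -2.22 in Shef3, -2.18 in H14 and 3.80 in Shef1. HOXD8 gave 7.60 (0.237), HOXD11 6.71 (0.249), HOXC10 5.24 (0.277) and HOXB13 4.02 (0.317). The other probe set of HOXB1, below 4 on every array, did not rise in Shef1. It read -0.21 in hESC, -2.17 in DFNB and -0.32 in FGF3+10 there, and its r with the one used was 0.02.

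Genes that act with or upstream of the HOX genes were given from lists chosen by function. Of the 8 measured TALE cofactors 0 were called in any comparison, and 3 had unadjusted p below 0.05 on each medium against hESC. MEIS2, the partner with the largest change, read 7.69, 8.21 and 7.65 in hESC, 10.6, 10.7 and 9.75 in DFNB, and 10.3, 10.7 and 9.64 in FGF3+10. MEIS1 read 5.42, 6.45 and 6.06 in hESC, 8.21, 7.94 and 7.39 in DFNB, and 7.97, 8.77 and 7.81 in FGF3+10. PKNOX2 read 5.07, 5.54 and 5.43 in hESC, 7.28, 7.13 and 7.10 in DFNB, and 7.20, 6.47 and 7.01 in FGF3+10. All 3 were above every hESC value on every day 14 array, in all lines. Against hESC, MEIS2 differed by 2.50 ± 0.40 in DFNB (adjusted p 0.0571) and by 2.34 ± 0.40 in FGF3+10 (0.0721), and with the cell line as replicate block it passed, at 0.0247 and 0.0323, as it did with a filter on dim genes, at 0.0283 and 0.0426. PKNOX2 differed by 1.82 ± 0.30 in DFNB (0.0599) and MEIS1 by 1.87 ± 0.41 (0.101). With the filter on dim genes PKNOX2 passed in DFNB (0.0283) and in FGF3+10 (0.0470), and MEIS1 in FGF3+10 (0.0465). With values below 4 set to 4 PKNOX2 passed in DFNB (0.0173) and FGF3+10 (0.0357), and MEIS2 passed in both (0.0238 and 0.036). MEIS1 then passed in FGF3+10 (0.0445) but not in DFNB (0.0577), where it passed with array weights (0.0276). With any 1 cell line left out, these 3 genes did not pass in either medium. Without Shef3, H14 and Shef1 those fits called only 0, 0 and 4 of all genes in DFNB and 0, 0 and 5 in FGF3+10. In DFNB the limma adjusted p without Shef3, H14 and Shef1 was 0.34, 0.40 and 0.10 for MEIS2. It was 0.33, 0.45 and 0.12 for PKNOX2 and 0.45, 0.51 and 0.13 for MEIS1. With the mean of probe sets PKNOX2 gave 0.181 in DFNB and 0.344 in FGF3+10.

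The CDX and ParaHOX list, with 6 genes, had none at 4 or higher on any array. CDX4, an upstream activator of the clusters, read 3.55, 0.83 and -0.15 in hESC and -2.04, -2.66 and -3.18 in DFNB, a difference of -4.04 ± 0.90 (adjusted p 0.104). Of the 14 retinoid genes 0 were called, and on each medium 3 higher and 1 lower had an unadjusted p below 0.05. ALDH1A2, which makes retinoic acid, differed from hESC by 3.71 ± 1.12 in DFNB (adjusted p 0.181) and by 4.60 ± 1.12 in FGF3+10 (0.152), and RARB, a receptor and target gene, by 2.27 ± 0.78 in DFNB (0.235). The hESC values of ALDH1A2, at 1.22, 0.22 and -2.53, lie below 4. RARB read 2.68, 5.02 and 5.63 in hESC and 7.62, 6.42 and 6.10 in DFNB. ALDH1A1, with a larger mean change in DFNB than RARB, read 5.53, 5.91 and 4.97 in hESC, 9.86, 5.05 and 9.17 in DFNB, and 9.25, 8.80 and 9.04 in FGF3+10. In H14 it was lower in DFNB than in hESC. CYP26A1, which breaks retinoic acid down, differed in DFNB by -1.71 ± 0.48 (0.166). Of the 15 Polycomb and trithorax genes 0 were called and 2 had an unadjusted p below 0.05 on each medium, with PHC1 at -2.06 ± 0.58 (0.165) and JARID2 at -2.00 ± 0.63 (0.199) in DFNB. JARID2 read 11.0, 10.7 and 9.75 in hESC and 7.81, 8.23 and 9.41 in DFNB. The 11 noncoding RNAs of the clusters gave 0 calls, and 0 at an unadjusted p below 0.05 between groups, among them HOXB-AS3 at 1.43, 5.02 and 2.17 in hESC, 4.11, 3.74 and 3.51 in DFNB, and 2.84, 4.17 and 1.72 in FGF3+10. The 15 neighbours of the clusters gave 0 calls as well, with 1 at an unadjusted p below 0.05 in DFNB and 0 in FGF3+10.

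Markers of the head regions that lack HOX expression were read beside them. Of 9 forebrain and eye genes, 1 was called: SIX6, an eye field factor, read -1.73, -1.78 and -1.08 in hESC, 4.51, 1.20 and 6.07 in DFNB, and 5.74, 6.52 and 7.27 in FGF3+10. Its hESC values lie far below the readable level of 4, so the size of its difference is uncertain. In FGF3+10 against hESC it was 8.04 ± 1.07 (adjusted p 0.0357) on the deposited values, a call that was lost without any single cell line (adjusted p 0.359 without Shef3, 0.252 without H14 and 0.129 without Shef1). Those fits have fewer arrays and called only 0, 0 and 5 of all genes. SIX6 was still called with quantile normalisation (limma adjusted p 0.0415), the cell line block (0.0323), array weights (0.0202) and the trend and robust prior (0.0139). With values below 4 set to 4 the difference was 2.51 ± 0.56 (adjusted p 0.0956). SIX3, its relative, read -1.41, 1.35 and 1.97 in hESC, 7.71, 3.37 and 8.51 in DFNB, and 7.20, 7.0 and 9.52 in FGF3+10. LHX2, a forebrain and eye gene, read 0.88, 3.43 and 2.48 in hESC, 8.27, 3.96 and 9.15 in DFNB, and 8.30, 8.44 and 10.4 in FGF3+10. The day 14 values of these 3 genes lie above all hESC values, which are below 4, with H14 in DFNB the lowest. The difference from hESC was 5.89 ± 1.44 for SIX3 (adjusted p 0.129) and 4.86 ± 1.31 for LHX2 (0.153) in DFNB. Other members of the list went the other way in the mean. HESX1, an early forebrain and pituitary factor, read 6.53, 5.77 and 5.38 in hESC, 1.61, 1.85 and 6.47 in DFNB, and 1.42, 4.69 and 7.96 in FGF3+10, a difference of -2.58 ± 1.72 in DFNB (adjusted p 0.489). OTX2, a forebrain and midbrain factor, differed by -0.76 ± 0.85 (0.693). In both genes Shef1 stood higher at day 14 than at day 0 and Shef3 and H14 stood lower. The 6 midbrain and hindbrain genes gave 0 calls, with GBX2 at 3.09 ± 1.41 in DFNB (0.332) and IRX3 at 1.57 ± 0.69 (0.318). All hESC and DFNB values of GBX2 lie below 4. IRX3 read 4.49, 7.06 and 6.38 in hESC and 8.38, 7.08 and 7.18 in DFNB. Over the 3 comparisons of groups, 0 of the 10 trunk mesoderm, 14 mesenchyme, 10 trophoblast, 9 endoderm, 9 neural crest and 9 pluripotency genes were called. At an unadjusted p below 0.05, 5 and 7 endoderm genes and 2 and 3 pluripotency genes were lower than in hESC in DFNB and FGF3+10, and 3 and 0 mesenchyme genes were higher.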

How the data were processed

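The data were 9 Affymetrix arrays of 200 ng total RNA labelled with biotin, per the labels' protocols. The authors deposited log2 values (log base and software not given in the sources used here; log2 is an assumption), with every array at the same median. Of 54675 probe sets, 62 were controls, 41091 had 1 gene symbol, 1801 had several and 11721 had none in the annotation. Symbols were updated through Entrez identifiers (41037 matched), and the probe set with the highest mean was taken per gene, giving 19775 genes.

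Groups were compared by limma 3.58.1 in R 4.3.3 (lmFit, eBayes, group means over all 9 arrays), with Benjamini-Hochberg adjustment over all genes and a call below 0.05. The moderated F test was used for cell lines and for line by day. The script was tested on simulated data. Array number limits the precision. Groups hold the same 3 lines, which pairs the arrays: deviations from group means correlated within lines at 0.105, 0.0861 and 0.338 (Shef3, H14 and Shef1, between DFNB and hESC), 0.181, 0.258 and 0.283 (FGF3+10 and hESC), and 0.400, 0.331 and 0.713 (FGF3+10 and DFNB). Alternatives were the normalisation, the probe set choice, filters on dim genes, the cell line block, array weights, the prior and leaving out arrays. Members and lists were chosen with earlier results of these data known. The text names the 12 members with the highest single value, and the 5 with the largest change in each comparison of groups among members with a value of at least 4 on at least 1 of its arrays. It also names the 5 with the largest F in each F test. Of the lists it names genes called, genes among the 3 largest changes, and a few others.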

Additional observations from a re-analysis of the deposited data

How the results depend on the processing

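No member was called in any of the 20 settings tried for each comparison of groups, the 15 for cell lines or the 6 for line by day. The lowest adjusted p was 0.0560 for HOXB13 between DFNB and hESC and 0.0556 for HOXD10 between FGF3+10 and hESC, both with array weights, 0.654 between FGF3+10 and DFNB, 0.0728 for HOXC6 between lines and 0.110 for line by day. With the cell line as replicate block 0 members were called, while all genes gave 189 calls between DFNB and hESC and 115 between FGF3+10 and hESC, against 40 and 35 without it. Array weights gave 1612 and 284 calls, values below 4 set to 4 gave 183 and 123, a filter on dim genes 122 and 66, and the trend and robust prior 161 and 81. Between FGF3+10 and DFNB all settings gave 0 calls. Leaving out an array or a line gave 0 to 72, 0 to 32 and 0 to 0 calls, and 16 to 55 for cell lines. The test of cell lines, with 91 calls, gave 58 with quantile normalisation, 217 with the mean of probe sets, 491 without dim genes, 468 with values below 4 set to 4 and 616 with the trend and robust prior. Line by day, with 0 calls, gave 1744, 4, 0, 0 and 0 with that floor, the trend and robust prior, quantile normalisation, the mean of probe sets and the filter on dim genes.

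The median over arrays of the number of members at or above the level was 9 at a level of 4 and 2 at a level of 6. Values turned for HOXC11 between DFNB and hESC with values below 4 set to 4 (0.049), for HOXD1 with the mean of probe sets (-0.37), and, without an array or line, for HOXC4 (range -0.11 to 1.20) and HOXD1 (-0.088 to 1.10) between DFNB and hESC and for HOXC6 (-3.15 to 0.074) and HOXB4 (-2.44 to 0.45) between FGF3+10 and DFNB. The cause was not tested. Without an array or line, the members' median ran from -0.54 to 0.48 between DFNB and hESC, turning sign without the H14 arrays (0.48), hESC H14 (0.10) or DFNB H14 (0.15), and it was 0.09 without dim genes. It ran from -0.89 to -0.23 between FGF3+10 and hESC and from -0.95 to -0.07 between FGF3+10 and DFNB.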
